A study of Mus musculus with 13 samples.

Results

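The genes described here handle zinc, iron and copper in the mouse submandibular salivary gland. They were chosen by symbol, with earlier results of these data known. The choice took every gene of the zinc transporter families Slc30a and Slc39a together with named genes of metallothionein, iron and copper biology. This gave 40 of the 23364 genes in the files. There were 10 Slc30a zinc exporters, 14 Slc39a zinc importers, 4 metallothioneins, 6 genes of iron uptake and export, 2 ferritin chains and 4 copper transporters.

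Zinc, iron and copper are cofactors that every cell needs and that are toxic when free, so cells balance uptake, export and storage. Slc30a proteins (ZnT) move zinc out of the cytosol, to the outside or into organelles, and Slc39a proteins (ZIP) move it into the cytosol. Metallothioneins are small cysteine-rich proteins that bind zinc and copper, ferritin stores iron in a shell of heavy and light chains, and ferroportin (Slc40a1) is the known cellular iron exporter. Salivary acinar cells make large amounts of secretory protein, and many enzymes of the secretory pathway receive their zinc or copper inside the Golgi.

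Whole submandibular glands of unaltered, untreated C57BL/6 mice were profiled by RNA-seq. The 6 time points were E14.5 (3 samples) and, with 2 samples each, E16.5 and E18.5, P5, and 4wk and 12wk, where E stands for the embryonic day, P for the postnatal day and wk for weeks of age. The first 3 time points formed the embryonic stage (7 samples), P5 the neonatal stage (2 samples) and the last 2 the adult stage (4 samples). An embryonic sample was a pool, of 3 animals at E14.5 and of 2 animals at both later embryonic ages. Embryos and P5 animals were of unknown sex, whereas the 4wk and 12wk animals were male, so age and sex cannot be told apart between P5 and adult glands. In whole tissue, fewer cells of a type and less RNA per cell cannot be told apart either.

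The gland markers were present, as all 7 epithelial and all 6 acinar markers were detected. The epithelial marker Epcam ranged from 101 to 307 FPKM, and the acinar water channel Aqp5 from 0.568 FPKM in E14.5 replicate 1 to 262 FPKM at 4wk. The reads of a sample on genes numbered between 5817293 at 4wk and 48314162 at P5, and 1 read on a gene of 1 kilobase was worth 0.0207 to 0.1719 FPKM. Values near 0 carry at least this counting error. Some libraries stood apart by markers of other cells. E14.5 replicate 1 had an erythroid marker sum of 3376 FPKM, against 492.6 and 876.9 FPKM in the other E14.5 samples. The adipocyte marker sum was 1179 FPKM in P5 replicate 1 against 355.1 FPKM in P5 replicate 2, and 811.4 FPKM in 4wk replicate 1 against 63.09 FPKM in 4wk replicate 2.

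Expression was read as FPKM, the number of reads on a gene relative to its length and to the read total of the sample, which allows levels to be compared between genes. Of the 40 members, 31 reached 1 FPKM in at least 1 sample and were tested among 14650 genes. Fold changes are differences of log2(FPKM + 1), so those of low genes are understated. A gene was called when the log2 fold change was at least 1 in size and the adjusted p from limma (Benjamini-Hochberg over all genes tested) was below 0.1, and "rose" and "fell" are used for such genes. The 10 highest genes of a sample took 48.1% to 61.1% of all FPKM in the adult samples, 29.2% and 31.1% at P5 and less in every embryonic sample, and the deposited FPKM of most genes were lower in adults. The median log2 difference of all genes tested was -0.75 for adult against embryo, -0.53 for adult against P5 and -0.25 for P5 against embryo. After rescaling each sample by its median-of-ratios factor, which aligns the bulk of genes between samples, these medians were -0.08, -0.05 and -0.03. Values are therefore given on both scales for most calls of members. For some genes outside the 40 members only the deposited value is given. The gene spans, introns included, of Slc30a1, Slc39a9, Slc39a2, Slc39a5, Slc39a11, Slc39a13, Cp, Slc11a2 and Slc31a1 overlap that of a neighbour. Reads on any exon shared with the neighbour were not counted, which may understate their levels. Whether exons are shared was not examined.

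Between adult and embryonic glands, 10 of the 31 tested members (32.3%) were called, beside 43.6% of all genes tested. Cp and Slc31a2 rose, against a background of 5.58% of genes called higher, and 8 members fell, against 38% called lower. After rescaling, 12 members were called beside 28.4% of all genes, of which 10 were higher and 2 lower, against backgrounds of 13.8% and 14.7%. The genes called on both scales were Cp and Slc31a2, which rose, and Slc39a6 and Slc39a10, which fell, where 5.58% of all genes were called higher and 14.7% lower on both scales. The median of the 31 members was -0.20 as deposited and 0.66 after rescaling, each above the median of all genes on the same scale. From embryo to P5, 5 members (16.1%) were called, beside 12.3% of all genes: Slc39a4, Cp and Trf rose (background 4.14%) and Slc39a6 and Slc39a10 fell (background 8.14%). Rescaling gave 6 calls, beside 9.45% of genes. From P5 to adult, 5 members were called beside 23.1% of all genes, all lower, against 20.8% called lower. These were Slc39a4, Slc39a10, Mt1, Mt2 and Slc40a1, of which Slc39a4 and Slc40a1 were also called after rescaling, among 3 members beside 14.6% of genes. Without E14.5 replicate 1, P5 replicate 1 and 4wk replicate 1, the counts as deposited were 10 for adult against embryo, 2 for P5 against embryo (Slc39a4 and Cp) and 5 for adult against P5.

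**Figure D1:**
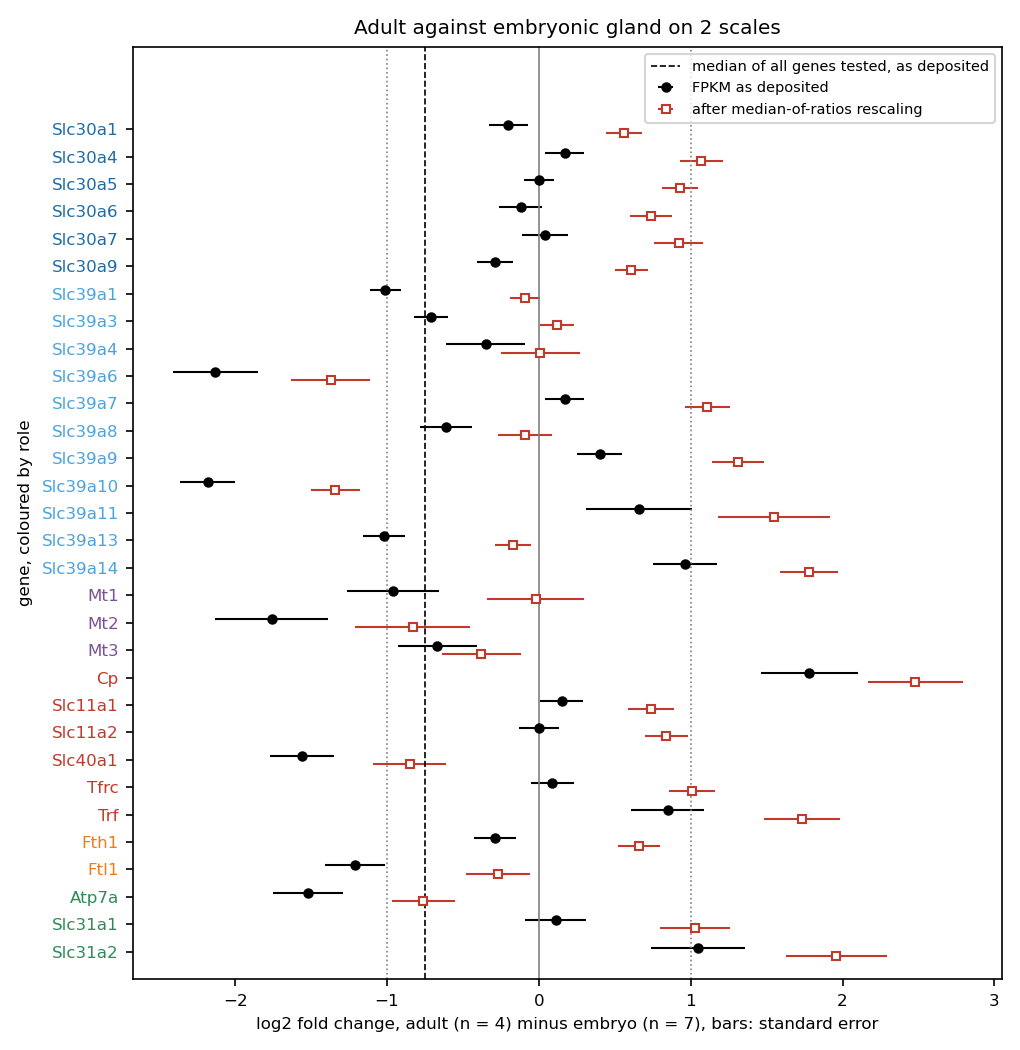
Log2 fold change of the 31 tested members between adult (n = 4) and embryonic (n = 7) samples, as deposited (filled circles) and after median-of-ratios rescaling (open squares), with standard errors; dotted lines mark a log2 fold change of 1 in size and the dashed line the median of all genes, -0.75. Only Cp and Slc31a2 lie above 1 and only Slc39a6 and Slc39a10 lie below -1 on both scales.

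Neighbouring time points located only some of the changes. Slc39a1, Slc39a6, Cp, Ftl1, Atp7a and Slc31a2, called in adult against embryo, were called at no neighbouring step as deposited. At E16.5 against E14.5, 3 members rose, namely Mt1, Mt2 and Slc39a11, beside 5.15% of all genes called and 4.17% called higher. After rescaling 2 rose, beside 4.39% of all genes called in either direction. At E18.5 against E16.5, limma called 0 members beside 2.94% of all genes, although 9 members had an unadjusted p below 0.05, and after rescaling it called 0 beside 2.48%. At P5 against E18.5, only Slc39a4 rose, beside 5.04% of genes called and 2.07% called higher. After rescaling Slc39a4 and Cp rose, beside 4.16% of genes called in either direction. At 4wk against P5, 5 members fell (Slc39a4, Slc39a10, Slc39a13, Mt3 and Slc40a1), beside 24.3% of genes called and 22.1% called lower, and rescaling gave 3 calls beside 15.1%. At 12wk against 4wk, limma called 0 members beside 5.15% of genes (0 beside 6.87% after rescaling), and 13 members had an unadjusted p below 0.05. The share of all genes below that unadjusted p was not counted, so these counts of 9 and 13 members have no background. Without the same 3 libraries, Mt2 was the only member called at E16.5 against E14.5, and 4 members were called at 4wk against P5. These neighbouring comparisons share samples, and most groups hold 2 samples.

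**Figure D2:**
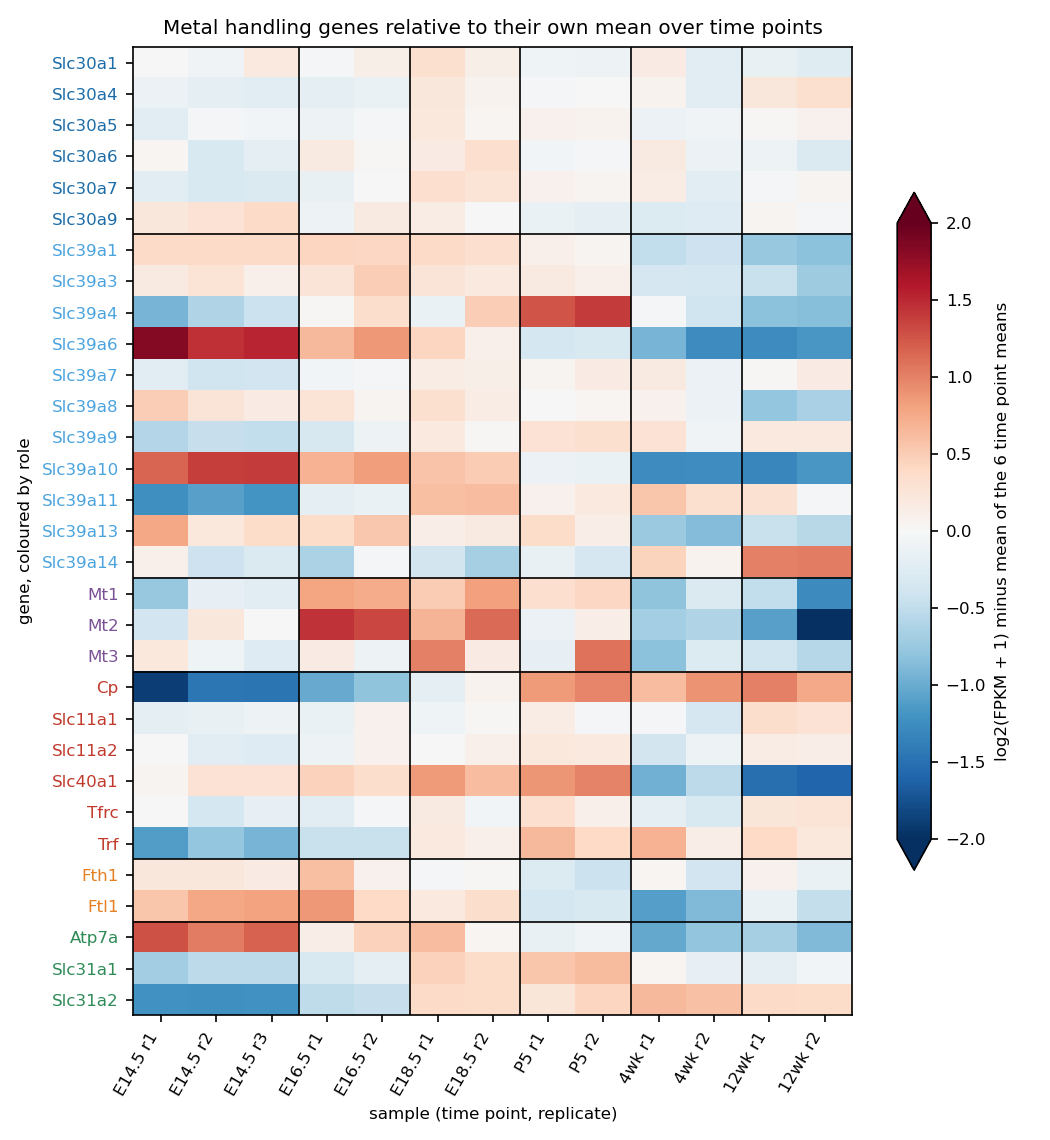
Log2(FPKM + 1) of the 31 tested members in each of the 13 samples, minus the mean of the gene's 6 time point means (red above, blue below, colours end at 2 in size), with genes grouped by role. Slc39a6, Slc39a10 and Atp7a are reddest at E14.5, Mt1 and Mt2 at E16.5 and E18.5, and Slc39a4 and Slc40a1 at P5, whereas Cp and Slc31a2 are bluest at E14.5.

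Mt1 and Mt2, the metallothioneins that most tissues express, were the most abundant zinc-binding products in the set. Mt1 was at 87.9, 134 and 129 FPKM at E14.5, 260 and 250 FPKM at E16.5, and 213 and 266 FPKM at E18.5. It was then at 190 and 200 FPKM at P5, 85.6 and 123 FPKM at 4wk, and 107 and 61.4 FPKM at 12wk. The E16.5, E18.5 and P5 samples were thus all higher than every E14.5 and adult sample. Mt1 rose by a log2 fold change of 1.14 (SE 0.25, limma adjusted p = 0.011) from E14.5 to E16.5, with the same 1.14 after rescaling. Without E14.5 replicate 1 this difference was 0.95 and was not called. From P5 to adult it fell as deposited (log2 fold change -1.09, SE 0.41, adjusted p = 0.046), whereas the rescaled value was -0.41 (adjusted p = 0.53). This call was lost without either P5 sample (-1.12 and -1.05) or 12wk replicate 2 (-0.90).

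Mt2 was at 61.8, 94.3 and 79.8 FPKM at E14.5, 222 and 204 FPKM at E16.5, and 130 and 177 FPKM at E18.5. After birth it was at 73.8 and 88.7 FPKM at P5, 50.1 and 52.9 FPKM at 4wk, and 37.3 and 17.6 FPKM at 12wk. Both E16.5 samples exceeded all others, and the adult samples lay below every other sample. The rise from E14.5 to E16.5 was 1.45 (SE 0.27, limma adjusted p = 0.005) and 1.44 after rescaling. Mt2 fell in adult against embryo (log2 fold change -1.76, SE 0.37, adjusted p = 0.00065) and against P5 (-1.13, SE 0.51, adjusted p = 0.084), and rescaling left these at -0.83 (adjusted p = 0.075) and -0.46 (adjusted p = 0.55). The call against P5 was lost without either P5 sample or either 12wk sample (-1.26 to -0.79). Over the same samples, the 8 skeletal muscle markers summed to 496.3, 192.3 and 153.9 FPKM at E14.5, to 516.6 and 1122 FPKM at E16.5, and to between 1.19 and 25.95 FPKM in every later sample. Their part in the E16.5 values was not tested.

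The 2 genes did not keep a fixed ratio. Mt1 divided by Mt2 was 1.42, 1.42 and 1.61 in the E14.5 samples, 1.17 and 1.22 in those of E16.5, and 1.63 and 1.5 in those of E18.5. After birth the ratio was 2.57 and 2.25 in the P5 samples, 1.71 and 2.32 in those of 4wk, and 2.86 and 3.49 in those of 12wk. A ratio within a sample does not depend on the scale of that sample. All postnatal ratios were higher than all embryonic ones, a comparison chosen after the values were seen and not tested.

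Mt3, best known from brain, was near the limit of detection. It was at 1.06, 0.66 and 0.487 FPKM at E14.5, 0.974 and 0.648 FPKM at E16.5, 2.57 and 0.974 FPKM at E18.5, and 0.577 and 2.78 FPKM at P5. It was at 0 and 0.467 FPKM at 4wk and 0.341 and 0.196 FPKM at 12wk. The replicates at E18.5 and at P5 lay far apart, and all adult values lay below all earlier ones. As deposited, Mt3 fell from P5 to 4wk by -1.01 (SE 0.39, limma adjusted p = 0.043), which rested on 0 and 2 reads at 4wk against 15 and 63 at P5. After rescaling the difference was -0.84 (adjusted p = 0.12) and was not called. Leaving out P5 replicate 2 or 4wk replicate 1 ended this call, and the value moved between -1.64 and -0.38 over the samples left out in turn. Mt4, known from squamous epithelium, stayed under 1 FPKM, with 1 read in 1 sample.

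The 4 metallothionein genes lie side by side on chromosome 8 in mm9, from Mt4 at chr8:96661104-96662931 through Mt3 and Mt2 to Mt1 at chr8:96702989-96704225, all on the plus strand. Metal response elements are short motifs through which the zinc-sensing factor Mtf1 acts on metallothionein genes. Their cores were searched as TGCACNC and TGCGCNC, on both strands, in the 300 genomic bases before each start codon, and no matches in Mt1 or Mt2 overlapped. Mt1 and Mt2 held 5 cores each and Mt3 held 3 (Slc30a2, among the other members, held 4), whereas 24.4% of all 27413 such windows held at least 1 and 0.102% held at least 5. Among the 40 members, 15 had a window with at least 1 core, and Mt1 and Mt2 were the members with 5. Members with several start codons were counted by their window with the most cores. The shares of all windows count each window singly, so they are not like for like. Any link of the cores to the rise of Mt1 and Mt2 at E16.5 was not tested. Sites are shown for Mt1 and Mt2, the members with 5 cores. For each gene these are the core nearest upstream of the TATA box and 1 core on the opposite strand. The 7 bases of the core are in capitals, and all are read on the plus strand.
Mt1 nearest core, chr8:96703077-96703103: gcaaacccttTGCGCCCggactcgtcc
Mt1 opposite core, chr8:96703063-96703089: accgcctgctGGGTGCAaaccctttgc
Mt2 nearest core, chr8:96696619-96696645: gcggagctttTGCGCTCgacccaatac
Mt2 opposite core, chr8:96696566-96696592: gaaaaagggcGTGTGCAggcggcgggg
Both nearest cores begin with the letters TGCGC. A match describes the sequence and does not show that a factor binds there. Mtf1 itself was between 1.5 and 3.6 FPKM in all samples and was not called in adult against embryo (log2 fold change -0.46 as deposited, 0.21 after rescaling).

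The zinc exporters varied little as deposited. Of the 10 Slc30a genes, 6 passed the filter and 0 were called in any of the 8 comparisons as deposited. Slc30a1, the exporter of the plasma membrane, ranged from 3.22 to 5.24 FPKM over all samples. Slc30a5, Slc30a6 and Slc30a7, which load zinc into the early secretory pathway, ranged from 29.6 to 40.4, from 7.83 to 12.7 and from 9.65 to 15.6 FPKM. Slc30a4, a vesicular exporter, ranged from 13.6 to 20.2 FPKM, and Slc30a9, a transporter of mitochondria, from 16.3 to 26.3 FPKM. The highest value of each gene was 1.37 to 1.63 times its lowest, and embryonic and adult samples overlapped for each of the 6. For adult against embryo the 95% interval of the log2 difference was -0.21 to 0.22 for Slc30a5 and -0.54 to -0.05 for Slc30a9, the gene with the lowest estimate (-0.29). After rescaling, all 6 estimates lay between 0.56 and 1.07, and Slc30a4 was called at 1.07 (SE 0.14, limma adjusted p = 2e-05). Slc30a5 had the highest level of the family in every sample. Slc30a2, Slc30a3, Slc30a8 and Slc30a10 stayed under 1 FPKM, with highest values of 0.35, 0.0394, 0.0844 and 0.129 FPKM. They include Slc30a3 of synaptic vesicles and Slc30a8 of insulin granules.

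The zinc importers held members called in both directions. Of the 14 Slc39a genes, 11 passed the filter and 6 were called in at least 1 comparison as deposited. Slc39a6 and Slc39a10, close relatives in sequence that form a complex, had the steepest fall with age. Slc39a6 (chr18:24738382-24762318, mm9, minus strand) was at 25.6, 19.4 and 20.4 FPKM at E14.5, 10.7 and 12.6 FPKM at E16.5, and 8.98 and 7 FPKM at E18.5. It was at 4.83 and 4.99 FPKM at P5, 2.92 and 2.1 FPKM at 4wk, and 2.11 and 2.33 FPKM at 12wk. Every time point up to 4wk lay wholly below the one before it. The log2 fold change was -1.31 (SE 0.36, limma adjusted p = 0.019) for P5 against embryo and -2.13 (SE 0.28, adjusted p = 1.2e-05) for adult against embryo, and rescaling gave -1.06 and -1.37, both called. Without either P5 sample the P5 difference as deposited was -1.29 and -1.33 with adjusted p of 0.15 and 0.13.

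Slc39a10 (chr1:46864389-46910891, mm9, minus strand) was at 27.5, 31.9 and 32.2 FPKM at E14.5, 19.6 and 21.6 FPKM at E16.5, and 17.8 and 17 FPKM at E18.5. It was at 10.7 and 10.6 FPKM at P5, 4.3 and 4.33 FPKM at 4wk, and 4.11 and 4.65 FPKM at 12wk. Each time point up to 4wk lay wholly below the one before it, and the 4wk and 12wk samples overlapped. Adult against embryo gave -2.18 (SE 0.18, limma adjusted p = 1.5e-07), or -1.34 after rescaling, called on both scales. P5 against embryo gave -1.06 (SE 0.23, adjusted p = 0.0062) and 4wk against P5 gave -1.13 (SE 0.12, adjusted p = 4e-05), whereas rescaling left these at -0.80 and -0.56, short of the threshold of size. Adult against P5 gave -1.12 (SE 0.25, adjusted p = 0.003) as deposited and -0.54 after rescaling, not called. The P5 call against embryo was lost without E14.5 replicate 2 (-0.99) or replicate 3 (-0.98). Together the 2 genes made up 22.2%, 23% and 23.5% of the summed Slc39a FPKM in the E14.5 samples, 13% and 13.8% in those of E16.5, and 10.3% and 9.6% in those of E18.5. Their share was 6.72% and 6.6% in the P5 samples, 3.39% and 3.56% in those of 4wk, and 3.23% and 3.56% in those of 12wk. The summed Slc39a level lay between 181 and 259 FPKM as deposited. Unlike the share, this sum depends on the scale of a sample, and it was not rescaled.

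**Figure D3:**
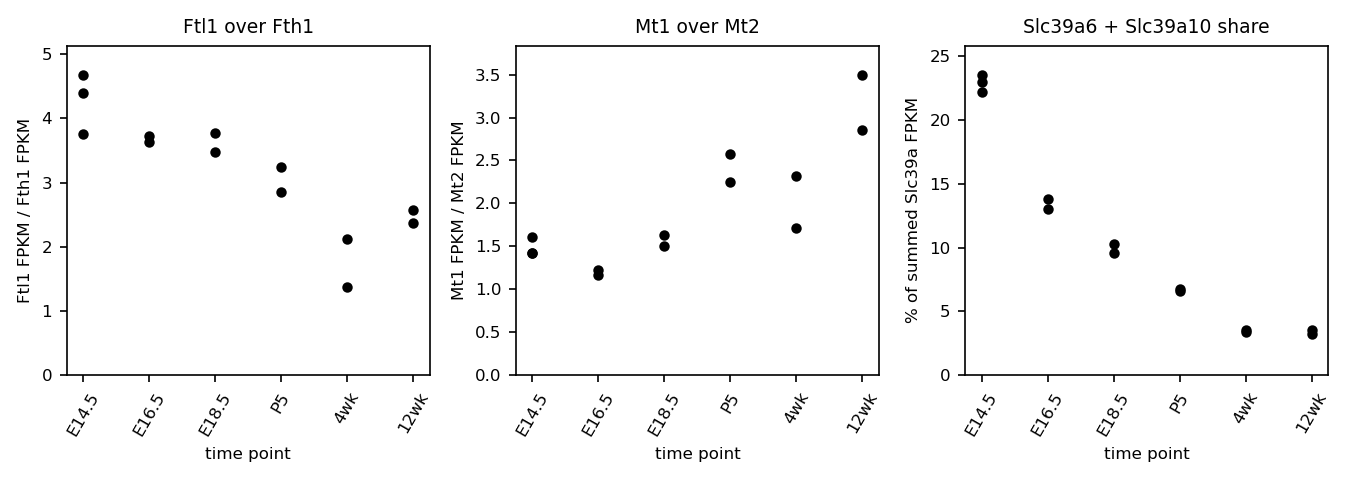
Quantities that do not depend on the scale of a sample, by time point with 1 point per sample: Ftl1 divided by Fth1, Mt1 divided by Mt2, and the percent of summed Slc39a FPKM in Slc39a6 and Slc39a10. The last falls from 22.2% to 23.5% at E14.5 to between 3.23% and 3.56% in the adult samples, and Ftl1 over Fth1 is lowest at 4wk.

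Slc39a4, the importer of intestinal epithelium whose human counterpart is mutated in the zinc deficiency acrodermatitis enteropathica, peaked at P5. It (chr15:76442815-76447322, mm9, minus strand) was at 0.163, 0.461 and 0.639 FPKM at E14.5, 1.24 and 1.82 FPKM at E16.5, and 1.01 and 2.1 FPKM at E18.5. It was at 4.3 and 4.83 FPKM at P5, 1.16 and 0.677 FPKM at 4wk, and 0.247 and 0.221 FPKM at 12wk. Both P5 samples exceeded all others, and the 12wk samples were back in the range of E14.5. The gene rose from E18.5 to P5 by 1.15 (SE 0.24, limma adjusted p = 0.0088) and fell from P5 to 4wk by -1.55 (SE 0.24, adjusted p = 0.00036). On the rescaled data these were 1.22 and -1.18, and P5 against embryo (1.51) and adult against P5 (-1.86) were likewise called on both scales. Without E18.5 replicate 1 the rise from E18.5 was 0.84 and was not called.

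Slc39a11, a zinc importer of the Golgi, rose early. It (chr11:113106167-113511393, mm9, minus strand) was at 6.81, 7.61 and 6.97 FPKM at E14.5, 15.2 and 15.8 FPKM at E16.5, and 26.8 and 27.1 FPKM at E18.5. It was at 18.4 and 19.8 FPKM at P5, 25.8 and 21.9 FPKM at 4wk, and 21.5 and 16.9 FPKM at 12wk. The 3 embryonic time points did not overlap, while the later ones lay between E16.5 and E18.5. The step from E14.5 to E16.5 was 1.02 (SE 0.12, limma adjusted p = 0.00038) as deposited, and the rescaled value, printed as 1.00, lay just under the threshold of size. The deposited call was lost without E14.5 replicate 1 (0.99) or E16.5 replicate 2 (1.00). That from E16.5 to E18.5 was 0.76 (adjusted p = 0.0075), under the threshold on both scales. Adult against embryo was not called as deposited (0.66, adjusted p = 0.11) but was after rescaling (1.55, adjusted p = 0.0027).

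**Figure D4:**
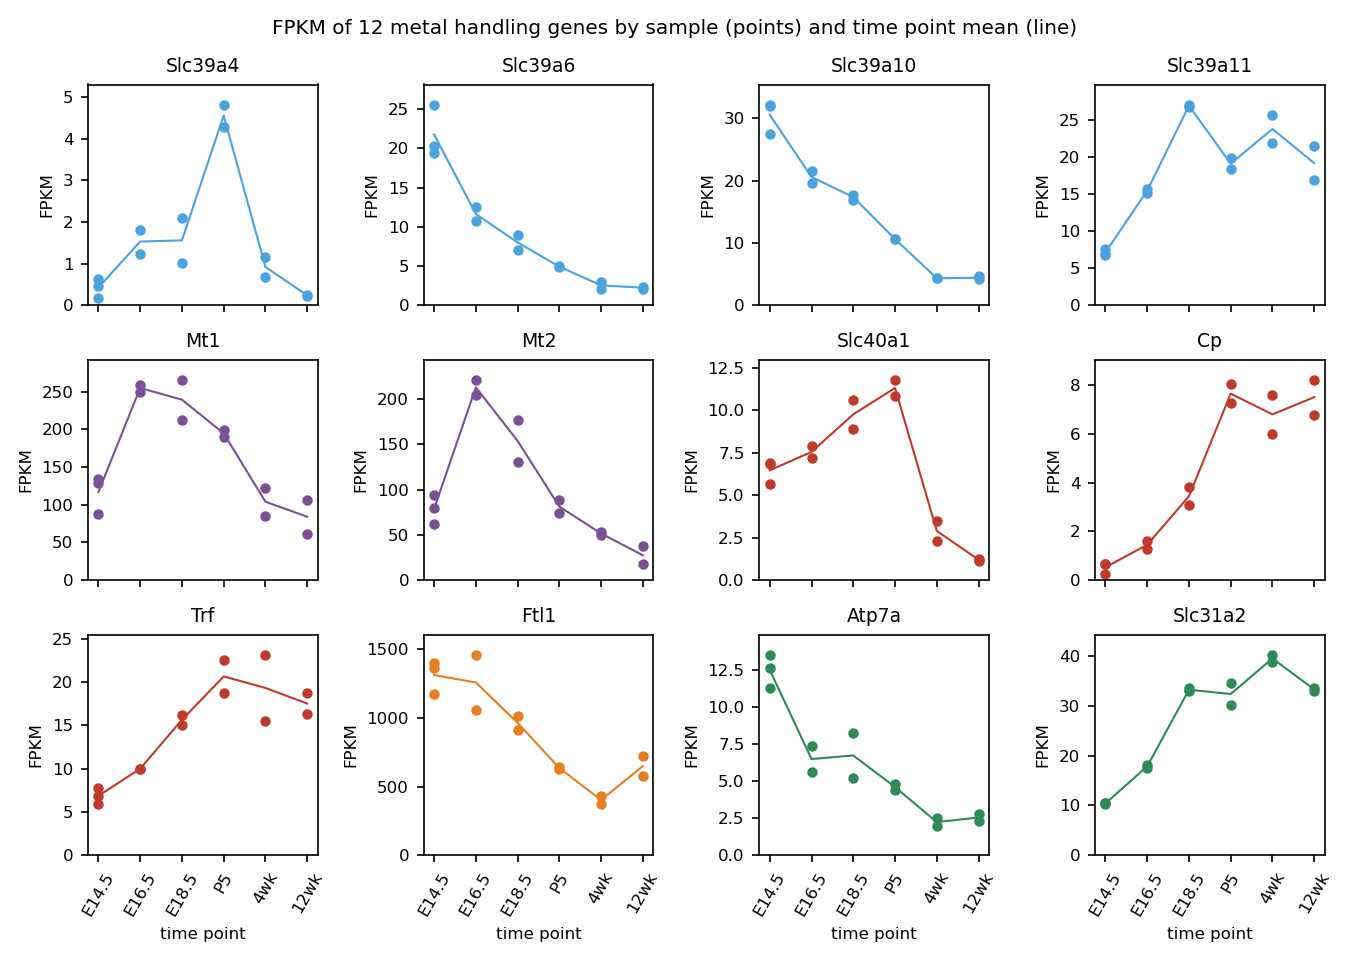
FPKM of 12 members by time point, with 1 point per sample and a line through the time point means, each panel starting at 0. Slc39a4 and Slc40a1 peak at P5, Mt2 peaks at E16.5, Slc39a6, Slc39a10 and Atp7a are highest at E14.5, and Cp, Trf and Slc31a2 are lowest at E14.5.

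Slc39a1, an importer of the plasma membrane found in most tissues, was level before birth and lower after it. It was between 49 and 52.1 FPKM in the 7 embryonic samples (median 50.7), 41.7 and 40.2 FPKM at P5, 27.2 and 28.7 FPKM at 4wk, and 22.4 and 21.3 FPKM at 12wk. The stages did not overlap. As deposited it fell in adult against embryo (-1.01, SE 0.10, limma adjusted p = 7e-07), but the rescaled difference was -0.09 (adjusted p = 0.47). The deposited call was lost without 12wk replicate 1 (-0.96) or replicate 2 (-0.94). Slc39a13, a Golgi and vesicle importer that human connective tissue disease has linked to collagen-producing cells, was also called lower as deposited and not after rescaling. Its embryonic samples were between 11.1 and 18 FPKM (median 13.2), P5 was at 13.3 and 11.1 FPKM, 4wk at 5.6 and 5.09 FPKM and 12wk at 7.18 and 6.58 FPKM. Adult samples lay below all earlier ones. The deposited fall of -1.02 (SE 0.14, adjusted p = 1.9e-05) against embryo and of -1.05 (SE 0.18, adjusted p = 0.00056) from P5 to 4wk became -0.17 and -0.46 after rescaling, neither called. The first call was lost without E14.5 replicate 1, E16.5 replicate 2 or either 4wk sample (-0.99 to -0.95), and the second without P5 replicate 1 (-0.94) or 4wk replicate 2, where the value lay just short of the threshold of size.

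The remaining tested importers were not called as deposited. Slc39a7, which releases zinc from the endoplasmic reticulum, had the highest level of the family in every sample, from 70 to 104 FPKM. Its share of summed Slc39a FPKM was 31.3% to 33.2% at E14.5 and 47% to 52.4% in the adult samples. Slc39a14, which carries zinc, iron and manganese, was at 2.98 to 5.8 FPKM in the embryonic samples (median 3.9), 4.73 and 4.01 FPKM at P5, 7.59 and 5.62 FPKM at 4wk, and 11.8 FPKM in both 12wk samples. It missed the threshold of size in adult against embryo as deposited (0.96, SE 0.21, limma adjusted p = 0.00075) and was called after rescaling (1.78, adjusted p = 3.5e-06), as it was against P5 (1.49). From P5 to 4wk it was 0.49 as deposited and 1.09, called, after rescaling. Slc39a7 (1.11) and Slc39a9 (1.31) were also called in adult against embryo after rescaling. Slc39a8, the nearest relative of Slc39a14, was between 1.22 and 2.42 FPKM up to 4wk and at 0.42 and 0.541 FPKM at 12wk (12wk against 4wk, -0.69, adjusted p = 0.025, not called). Slc39a3 was between 4.42 and 11.5 FPKM and Slc39a9 between 13.7 and 26.6 FPKM. Slc39a2, Slc39a5 and Slc39a12 stayed under 1 FPKM, with highest values of 0.442, 0.296 and 0.196 FPKM.

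Among the genes of iron uptake and export, ceruloplasmin (Cp), a copper-containing ferroxidase that oxidises iron as it leaves the cell, had the largest rise. Cp (chr3:19857054-19909145, mm9, plus strand) was at 0.24, 0.68 and 0.663 FPKM at E14.5, 1.28 and 1.62 FPKM at E16.5, and 3.06 and 3.81 FPKM at E18.5. It was at 7.25 and 8.05 FPKM at P5, 6.01 and 7.58 FPKM at 4wk, and 8.22 and 6.78 FPKM at 12wk. Time points followed each other without overlap up to P5 and overlapped thereafter. The log2 fold change was 1.87 (SE 0.40, limma adjusted p = 0.0063) for P5 against embryo and 1.78 (SE 0.32, adjusted p = 0.00016) for adult against embryo, and 1.97 and 2.48 after rescaling. P5 against E18.5 gave 0.97 (adjusted p = 0.0084), under the threshold of size, and 1.08 after rescaling, called. Adult against P5 gave -0.09, with a 95% interval of -1.03 to 0.85.

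Slc40a1, or ferroportin (chr1:45964915-45982439, mm9, minus strand), was highest at P5 and fell from P5 to adult. It was at 5.66, 6.87 and 6.84 FPKM at E14.5, 7.87 and 7.2 FPKM at E16.5, and 10.6 and 8.88 FPKM at E18.5. It was at 10.8 and 11.8 FPKM at P5, 2.29 and 3.49 FPKM at 4wk, and 1.26 and 1.14 FPKM at 12wk. Every adult sample was below every earlier sample. The fall was -2.08 (SE 0.28, limma adjusted p = 0.00015) for adult against P5 and -1.68 (SE 0.18, adjusted p = 3e-05) for 4wk against P5, and -1.59 and -1.14 after rescaling, both called. Against embryo it was -1.56 (SE 0.21, adjusted p = 1.1e-05) as deposited and -0.85 (adjusted p = 0.0069) after rescaling, under the threshold of size. Ferroportin is abundant in macrophages, of whose 9 measured markers 8 were above 0 in every sample and Vsig4 was at or near 0. They summed to between 65.54 and 143.6 FPKM in the embryo, to 128 and 133.5 FPKM at P5, and to between 107.1 and 146.4 FPKM in the adult samples. The markers did not move alike. Csf1r was at 19.3 to 20.2 FPKM at P5 and 10.3 to 16.1 FPKM in the adult. In the same order, Cd163 was at 3.76 to 4.17 and 1.8 to 2.79 FPKM, and Mrc1 at 13 to 14 and 5.01 to 10.3 FPKM. Aif1 was at 7.29 to 7.34 and 4.52 to 6.34 FPKM, and Cd68 at 9.15 to 9.82 and 6.99 to 9.55 FPKM. Emr1 was at 5.98 to 6.27 and 5.03 to 6.46 FPKM. C1qa was at 32 to 34.3 and 35.4 to 51.8 FPKM, and C1qb at 37 to 38 and 35.5 to 49.6 FPKM. Their part in the fall of Slc40a1 was not tested.

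Transferrin (Trf), the iron carrier of plasma, rose from embryo to P5. It was at 5.89, 7.78 and 6.87 FPKM at E14.5, 9.99 and 9.96 FPKM at E16.5, and 16.2 and 15 FPKM at E18.5. It was at 22.6 and 18.7 FPKM at P5, 23.1 and 15.5 FPKM at 4wk, and 18.7 and 16.3 FPKM at 12wk. Embryonic time points did not overlap, whereas P5 and adult samples did. The rise was 1.01 (SE 0.30, limma adjusted p = 0.026), or 1.24 after rescaling, and adult against embryo was 0.85 as deposited (not called) and 1.73 after rescaling (called). At P5 and 4wk the higher Trf value was that of replicate 1, the library with the higher adipocyte marker sum at each of these ages. The part of these cells was not tested, and without E14.5 replicate 1, P5 replicate 1 and 4wk replicate 1 the P5 difference was 0.78 (adjusted p = 0.22). The P5 call was also lost when any of the 3 E14.5 or 2 P5 samples was left out (0.88 to 1.14).

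The transferrin receptor Tfrc, through which cells take up transferrin-bound iron, ranged from 24.5 to 39.9 FPKM, with adult and embryonic samples overlapping. It was not called as deposited (adult against embryo, 0.09, SE 0.14) and was called at 1.01 after rescaling (limma adjusted p = 5.1e-05). Slc11a2 (DMT1), which moves iron across endosomal and apical membranes, ranged from 5.4 to 8.58 FPKM, and Slc11a1, a phagosomal metal transporter of macrophages, from 1.04 to 2.27 FPKM. Neither was called on either scale. Tfrc divided by Slc40a1, uptake over export, was between 2.87 and 5.63 in all samples up to P5. It was 12 and 7.24 at 4wk and 29.9 and 33.4 at 12wk, without overlap, in a comparison chosen after the values were seen and not tested.

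The ferritin light chain Ftl1 had the highest FPKM of the set in every sample. It was at 1172, 1366 and 1397 FPKM at E14.5, 1460 and 1055 FPKM at E16.5, and 911 and 1016 FPKM at E18.5. It was at 625.4 and 644 FPKM at P5, 373 and 430 FPKM at 4wk, and 723 and 574 FPKM at 12wk. All embryonic samples were above all postnatal ones. Ftl1 fell in adult against embryo as deposited (-1.21, SE 0.20, limma adjusted p = 8.9e-05), and the rescaled value was -0.27 (adjusted p = 0.29). The heavy chain Fth1, which carries the ferroxidase activity of ferritin, was at 262 to 401 FPKM in the embryonic samples (median 299), 219 and 198 FPKM at P5, 272 and 203 FPKM at 4wk, and 280 and 242 FPKM at 12wk. It was called in 0 of the 8 comparisons on either scale. Both genes have processed copies elsewhere in the genome, and reads that mapped to several places were not counted, so their levels are uncertain. Erythroid markers, of which 10 of 12 were detected and Hba-a1 and Hbb-b2 were listed at 0 in every sample, summed to between 79.94 and 3376 FPKM in the embryo, to 24.85 and 13.15 FPKM at P5, and to between 2.912 and 4.827 FPKM in the adult. Their part in the fall of Ftl1 was not tested.

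Within a sample, Ftl1 divided by Fth1 was 3.76, 4.4 and 4.67 in the E14.5 samples, 3.64 and 3.73 in those of E16.5, and 3.47 and 3.77 in those of E18.5. It was 2.86 and 3.25 in the P5 samples, 1.37 and 2.12 in those of 4wk, and 2.58 and 2.37 in those of 12wk. The FPKM of Ftl1 thus exceeded that of Fth1 in every sample, by more in all embryonic than in all postnatal samples. Reads lost to processed copies may differ between the 2 genes, so it is uncertain which transcript was more abundant. This ratio was chosen after the values were seen and was not tested.

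Several iron genes carry iron-responsive elements, hairpins bound by the iron regulatory proteins Aco1 and Ireb2, which repress translation from a 5′ untranslated region (UTR) and protect a transcript from a 3′ UTR. The search pattern was a bulged C, 5 bases, the loop CAGTGN, and 5 bases able to pair with the first 5 (G-T pairs included). It matched a 5′ UTR in 33 of 19854 genes (0.166%), of which 3 were members, and a 3′ UTR in 124 of 19915 genes (0.623%), of which 1 was a member with 4 matches. The matches are shown because they are what these 4 transcripts share beyond the rule that chose them. Elements with another loop, or with a break in the 5 pairs, are missed by this pattern. Other members, and other places in these 4 transcripts, may therefore hold elements that were not found. Each is on the strand of its gene in mm9, with the 6 bases of the loop in capitals.
Fth1 5′ UTR, chr19:10057223-10057249, plus strand: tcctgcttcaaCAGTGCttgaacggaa
Ftl1 5′ UTR, chr7:52715150-52715176, minus strand: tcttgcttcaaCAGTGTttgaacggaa
Slc40a1 5′ UTR, chr1:45982311-45982337, minus strand: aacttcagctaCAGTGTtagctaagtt
Tfrc 3′ UTR, chr16:32631306-32631332, plus strand: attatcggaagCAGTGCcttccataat
Tfrc 3′ UTR, chr16:32631685-32631711, plus strand: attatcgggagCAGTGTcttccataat
Tfrc 3′ UTR, chr16:32631750-32631776, plus strand: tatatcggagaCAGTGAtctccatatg
Tfrc 3′ UTR, chr16:32631797-32631823, plus strand: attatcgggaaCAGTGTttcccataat
The hairpins of the ferritin chains share the 5 pairs of their stem, whereas that of Slc40a1 has another. Of the 4 genes, Slc40a1 and Ftl1 fell in adult against embryo as deposited and Fth1 and Tfrc were not called. After rescaling only Tfrc was called, at 1.01, with Slc40a1 at -0.85 and Ftl1 at -0.27. RNA levels do not show translation, on which the 5′ elements act. Ireb2 fell in adult against embryo (-1.39, limma adjusted p = 2.1e-06) as deposited but not after rescaling (-0.50), and Aco1 was called on neither scale (-0.70 and 0.20). Both were looked at for their role at these elements, outside the rule for naming genes.

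Copper transporters divided by direction. Slc31a2, a copper transporter of endosomal membranes (chr4:61923596-61959445, mm9, plus strand), was at 10.5, 10.3 and 10.4 FPKM at E14.5, 17.5 and 18.1 FPKM at E16.5, and 33.5 and 32.9 FPKM at E18.5. It was at 30.1 and 34.6 FPKM at P5, 40.2 and 38.7 FPKM at 4wk, and 33.6 and 33 FPKM at 12wk. The embryonic time points did not overlap, the E18.5, P5 and 12wk samples overlapped, and both 4wk samples lay above all others. Adult against embryo gave 1.05 (SE 0.31, limma adjusted p = 0.007) as deposited and 1.96 after rescaling, both called, while the steps from E14.5 to E16.5 (0.72) and from E16.5 to E18.5 (0.86) had adjusted p of 0.00069 and 0.00097 and were under the threshold of size. The deposited call was lost when any of the 3 E14.5 samples or 4wk replicate 1 was left out (0.94 to 1.20 over all samples left out in turn). P5 against embryo was 0.89 (adjusted p = 0.11) as deposited and 1.13 (adjusted p = 0.081) after rescaling, called on that scale.

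Its neighbour Slc31a1, the copper importer of the plasma membrane (chr4:62021761-62052803, mm9, plus strand), peaked at P5. It was at 21.3, 24.1 and 24.1 FPKM at E14.5, 28.3 and 30.5 FPKM at E16.5, and 48.6 and 45.4 FPKM at E18.5. It was at 51.7 and 54.8 FPKM at P5, 36.1 and 31 FPKM at 4wk, and 30.9 and 33.7 FPKM at 12wk. It was not called as deposited and was called after rescaling in P5 against embryo (1.04, limma adjusted p = 0.03) and adult against embryo (1.03, adjusted p = 0.0016). Slc31a2 divided by Slc31a1 was between 0.427 and 0.725 up to P5 and between 0.977 and 1.25 in the adult, a ratio chosen after the values were seen and not tested.

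Atp7a, the copper pump that loads enzymes in the Golgi and is mutated in Menkes disease (chrX:103222615-103320265, mm9, plus strand), was highest at E14.5 and lowest in the adult. It was at 13.6, 11.3 and 12.7 FPKM at E14.5, 5.66 and 7.36 FPKM at E16.5, and 8.25 and 5.25 FPKM at E18.5. It was at 4.44 and 4.79 FPKM at P5, 1.96 and 2.51 FPKM at 4wk, and 2.82 and 2.28 FPKM at 12wk. E14.5 stood above all later samples, and the adult samples stood below all earlier ones. Adult against embryo was -1.52 (SE 0.23, limma adjusted p = 4e-05) as deposited and -0.76 (adjusted p = 0.0071) after rescaling, under the threshold of size. Slc31a1 divided by Atp7a was 1.57 to 2.12 at E14.5, 4.14 to 8.65 at E16.5 and E18.5, and 11 to 18.4 from P5 on. Atp7b, the hepatic pump mutated in Wilson disease, had a highest value of 0.154 FPKM.

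Other genes of the same pathways were counted for context. Of 4 tested zinc genes outside the families, only Tmem163, a zinc exporter of vesicles, was called in adult against embryo as deposited. After rescaling Mcoln1, an ion channel of lysosomes looked at after its value was seen, was called too (0.29 as deposited, 1.17 after rescaling). Tmem163 was between 0 and 0.0824 FPKM in all samples up to P5, at 4.44 and 6.24 FPKM at 4wk, and at 19.8 and 22.8 FPKM at 12wk. It rose from P5 to 4wk by 2.55 (SE 0.17, limma adjusted p = 1.3e-06) and again from 4wk to 12wk by 1.82 (SE 0.17, adjusted p = 7.8e-05), with 3.06 and 1.90 after rescaling.

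Of 31 other iron genes tested, 1 rose and 11 fell in adult against embryo, and 5 rose and 3 fell after rescaling. The deposited calls were 38.7% of the list, beside 43.6% of all genes, and the 8 calls after rescaling stood beside 28.4% of all genes. Heph, a membrane ferroxidase related to Cp, fell by -3.07 (SE 0.20, limma adjusted p = 1.9e-08), from between 10 and 16.6 FPKM in the embryonic samples to 6.2 and 6.26 FPKM at P5 and between 0.224 and 1.31 FPKM in the adult. The courses of Cp and Heph thus had opposite signs, and both were called on both scales. Ltf (lactoferrin) fell by -2.11 (adjusted p = 0.0014) and Pcbp2, an iron chaperone and RNA-binding protein, by -1.76 (adjusted p = 2.3e-08), the latter by -0.83 after rescaling. Lcn2, which binds iron-carrying siderophores, rose by 1.11 (SE 0.48, adjusted p = 0.051), with 3.53 FPKM in E14.5 replicate 1 against 27.2 to 40.1 FPKM in the other embryonic samples. Without that library the Lcn2 difference was 0.69, and without 4wk replicate 2 it was 0.91, neither called.

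Of 16 other copper genes tested, 0 rose and 8 fell in adult against embryo by limma, and 1 rose and 3 fell after rescaling. The deposited calls were 50% of the list, beside 43.6% of all genes called and 38% called lower, and the 4 calls after rescaling stood beside 28.4% of all genes. The largest falls were of lysyl oxidases, copper enzymes that cross-link collagen and receive copper from Atp7a: Lox by -3.53 (SE 0.28, adjusted p = 1.3e-07), Loxl2 by -2.78 (SE 0.22, adjusted p = 1.3e-07) and Loxl3 by -1.75 (SE 0.19, adjusted p = 1.8e-06). All 3 were called after rescaling too, at -2.88, -1.93 and -1.20. Lox was between 17.5 and 35.4 FPKM in the embryonic samples, 9.03 and 7.49 FPKM at P5, 3 and 1.95 FPKM at 4wk, and 0.305 and 0.449 FPKM at 12wk. The samples of the 3 stages did not overlap.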

How the data were processed

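Total RNA of 13 submandibular gland samples was sequenced by the authors as 50 bp single-end reads. They mapped the reads to mm9 with TopHat2 2.0.13 and Bowtie2 2.2.6, counted them with featureCounts without reads of several places or several genes, and deposited 1 FPKM value per gene and sample, derived with DESeq2 1.10.1. Median normalization by DESeq2 is described for the study, yet the factors found by median of ratios still differed by stage, from 1.148 to 1.38 in the embryo and from 0.617 to 0.714 in the adult, so the values were treated as scaled to sample totals, which is not certain. Members and lists were chosen with earlier results of these data known. Genes reaching 1 FPKM in any sample (14650) were fitted as log2(FPKM + 1) with limma 3.58.1 under R 4.3.3 (eBayes with trend, Benjamini-Hochberg), once by stage and once by time point, over all 13 samples. Counts were not used, so no count model was fitted. P-values measure the spread between these samples. In the fits by stage, the embryonic ages were treated as replicates, and so were the adult ages. That spread thus includes differences between ages, not only between replicates of one age. Depth was recovered from the steps of low FPKM values. Named with every sample were members called in any of the 8 comparisons, and further genes named outside that rule were Mtf1, Aco1, Ireb2, Slc31a1 and Slc39a14. From the context lists, up to 3 genes were named per direction, by the size of the log2 difference of called genes in adult against embryo. Alternatives were a pseudocount of 0.1, other filters, rescaling, no trend, a replicate block, only the samples compared, each sample left out, and 3 libraries left out together, the last added after seeing the data. Positions and UTRs are from GENCODE vM1 on mm9, in which 39 members had 1 gene model by name. Python 3.11.15, pandas 2.3.3 and matplotlib 3.10.9 made the tables and figures, and the fit was tested on simulated data.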

Additional observations from a re-analysis of the deposited data

Results flagged for a closer look

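In 62 groups (31 members, each in the 7 embryonic and in the 4 adult samples), 2 groups had a sample farther from the others than Dixon's 95% critical value allows. Chance gives about 5% where all samples of a group come from 1 population, whereas these groups join several ages. Mt3 was at 2.57 FPKM in E18.5 replicate 1, against 0.487 to 1.06 FPKM in the other embryonic samples. Fth1 was at 401 FPKM in E16.5 replicate 1, against 262 to 312 FPKM in the others. Neither gene was called in adult against embryo with all samples included.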

How the results depend on the processing

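Of 29 called values of single members, 16 kept their call without each sample in turn, and none reversed under any alternative run. Rescaling kept 15 and lost 14, leaving out E14.5 replicate 1, P5 replicate 1 and 4wk replicate 1 together kept 19 and lost 10, and a pseudocount of 0.1, a stricter filter and no variance trend kept all 29. With each sample left out, the number of members called was 9 to 11 for adult against embryo, 3 to 6 for P5 against embryo, 3 to 7 for adult against P5, 1 to 4 for E16.5 against E14.5, 0 to 0 for E18.5 against E16.5, 1 to 2 for P5 against E18.5, 4 to 5 for 4wk against P5 and 0 to 1 for 12wk against 4wk. The lowest E16.5 count, 1, was that without E14.5 replicate 1, where the Mt1 difference was 0.95, and P5 against embryo went to 3 without E14.5 replicate 2 or 3 or either P5 sample. Adult against P5 went to 3 without 12wk replicate 2.

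Without the 3 libraries the counts were 2 for P5 against embryo, 1 for E16.5 against E14.5, 2 for P5 against E18.5 and 1 for 12wk against 4wk. Rescaling gave 3 for adult against P5, 3 for 4wk against P5 and 2 for P5 against E18.5. A pseudocount of 0.1 gave 5 for E16.5 against E14.5, 1 for E18.5 against E16.5, 2 for P5 against E18.5 and 4 for 12wk against 4wk. Apart from the construction of each alternative, the cause was not tested. Samples with the same replicate number did not deviate together (mean correlation -0.016 over 30 pairs, 0.012 over 40 pairs of different numbers). With the number as a replicate block, P5 against embryo had 3 calls, and 26 of the 29 single values kept theirs.

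Depth limits the lowest members: at 4wk, 1 read on 1 kilobase was worth up to 0.1719 FPKM.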
